A study of Mus musculus with 24 samples.

Results

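Complement components and receptors were followed in the plantaris, a fast hindlimb muscle, in 2 genotypes: wildtype and Mstn-/-, the latter without functional myostatin, which limits muscle mass. The 9 genes were chosen by symbol, with earlier results of these data known: C1qa, C1qb, C1qc, C3, C4b, Cfb, C3ar1, C5ar1 and Serping1. Of these, 8 had a probe set annotated with that symbol alone, 1 probe set each, and all 8 were among the 14499 genes tested of 19937 genes with such a probe set. C3, the central component, was not analysed here, because the annotation used pairs no probe set with its symbol alone. In each genotype 1 group of mice had no operation, and in the other group the plantaris of both legs was overloaded by removing the soleus and most of the gastrocnemius, the muscles that work beside it. The 4 groups of 6 biological replicates, 24 arrays in all, came from mice aged 3 months, and the RNA of 1 plantaris per mouse was measured on a whole-transcript array. Untreated mice had no sham surgery, so loading and surgery differ together between the groups. The sources used here state neither how long the overload lasted nor which part of Mstn is deleted.

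Complement is a cascade of blood and tissue proteins that marks debris, dying cells and microbes for removal and calls in leukocytes. The classical route starts when C1q, assembled from the products of C1qa, C1qb and C1qc, binds its target and its proteases cleave C4 and C2, whereas the alternative route uses factor B (Cfb) as the protease that cleaves C3. Small fragments released from C3 and C5 act on the receptors C3ar1 and C5ar1 of myeloid cells, and C1 inhibitor (Serping1) blocks the proteases that start the classical and lectin routes. In most tissues macrophages are a main source of C1q, while stromal cells also make C4, factor B and C1 inhibitor, and in damaged muscle complement takes part in the recruitment of macrophages.

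The sequence just before the transcription start is shown for C1qb, C1qc and C3ar1, the members whose response to overload differed between the genotypes by the test described further on. The RefSeq promoter table of GRCm38.p6 held 5 of the 9 members, of which 4 were measured here. Each line gives the 250 bases before the start on the gene's own strand, which is the minus strand for all 3 genes. Positions are chr4:136886201-136886450 for C1qb, chr4:136892915-136893164 for C1qc and chr6:122856158-122856407 for C3ar1. Capitals mark the matches to 4 motifs searched on both strands.
C1qb: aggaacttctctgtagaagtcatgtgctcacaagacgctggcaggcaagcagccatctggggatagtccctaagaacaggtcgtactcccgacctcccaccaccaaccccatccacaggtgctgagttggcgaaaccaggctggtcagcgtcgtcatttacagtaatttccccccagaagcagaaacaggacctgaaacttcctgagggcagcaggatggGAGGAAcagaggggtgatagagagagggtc
C1qc: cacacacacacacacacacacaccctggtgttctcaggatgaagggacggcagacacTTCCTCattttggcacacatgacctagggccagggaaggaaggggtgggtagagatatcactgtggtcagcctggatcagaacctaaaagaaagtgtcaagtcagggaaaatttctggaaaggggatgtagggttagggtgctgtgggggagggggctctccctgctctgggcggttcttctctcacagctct
C3ar1: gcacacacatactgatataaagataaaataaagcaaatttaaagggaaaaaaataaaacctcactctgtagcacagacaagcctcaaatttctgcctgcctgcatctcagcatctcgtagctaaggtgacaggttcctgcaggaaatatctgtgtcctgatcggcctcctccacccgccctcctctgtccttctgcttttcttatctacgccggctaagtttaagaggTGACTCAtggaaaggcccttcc

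The C1qb window held 1 match to GAGGAA, the core of sites bound by the myeloid factor PU.1, beginning 30 bases before the start. The C1qc window held 1 match to the same core on the opposite strand, which reads TTCCTC in the line above and begins 193 bases before the start. The core is short and stands in 23.3% of the 32817 windows of the table. The C3ar1 window held 1 match to the AP-1 motif TGANTCA, beginning 22 bases before the start, against 6.75% of all windows. No match was found in these 3 windows, or in the window of C5ar1, to the STAT motif TTCNNNGAA (7.01% of all windows) or the C/EBP motif TTGCNNAA (9.57%). The window of C5ar1 held no match to any of the 4 motifs. Each of the 3 windows shown held 1 match in all, so matches could not overlap. A match describes letters in a window and was not tested as a site. In RefSeq gene order C1qb, C1qc and C1qa follow each other with no other protein-coding gene between them.

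All values below are log2 of the authors' RMA intensity, and a difference of 1 on this scale is a 2-fold change. Array medians lay between 139 and 147 in intensity, and the number of arrays limits the precision. All 8 members had group means above the filter level of 98.9 in all 4 groups. Mstn checked the genotype labels of the untreated groups, with a mean of 10.25 ± 0.11 (SD, n = 6) in wildtype and 8.93 ± 0.31 in Mstn-/- muscle. In overloaded muscle its means were 8.40 ± 0.19 and 8.25 ± 0.30, which the limma test did not separate (adjusted p = 0.39), so its level does not check those labels. 1 array stood out among the members: overloaded wildtype replicate 3 was the highest of its group for 8 of 8 members and for 15 of 16 macrophage markers. It was the highest or lowest of its group for 45.0% of all tested genes. Overloaded Mstn-/- replicate 6 was the lowest of its group for 7 of 8 members and 12 of 16 markers, and extreme for 39.5% of tested genes. Untreated Mstn-/- replicate 1 was the highest for 6 of 8 members and 9 of 16 markers, and extreme for 45.0%. Over all tested genes, untreated wildtype replicate 1 (55.7%) and overloaded wildtype replicate 4 (53.2%) were extreme more often than these. Members were refitted without each of the 24 arrays. The other gene lists and the marker-relative values were refitted without each of 2 edge arrays, overloaded wildtype replicate 3 and overloaded Mstn-/- replicate 6. The main changes in calls are given beside the results.

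The first comparison asks how overload changes complement transcripts in wildtype muscle. Every measured member rose: 8 of 8 passed the test (limma, Benjamini-Hochberg adjusted p under 0.05 over all 14499 genes), where 30.3% of all tested genes were higher and 65.9% changed in either direction. The rises ran from 2.02-fold for Serping1 to 5.94-fold for C3ar1, with a median log2 difference of 1.93 against -0.06 over all tested genes. All 8 members rose at least 2-fold, as did 5.95% of all tested genes. For all 8 the overloaded arrays lay above the untreated ones without overlap, which held in the upward direction for 21.8% of all tested genes and in either direction for 43%. As the list was chosen with earlier results of these data known, the shares here and below describe the members and do not test the list. In RNA of a whole muscle, more cells of a type and more RNA per cell cannot be told apart.

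**Figure D1:**
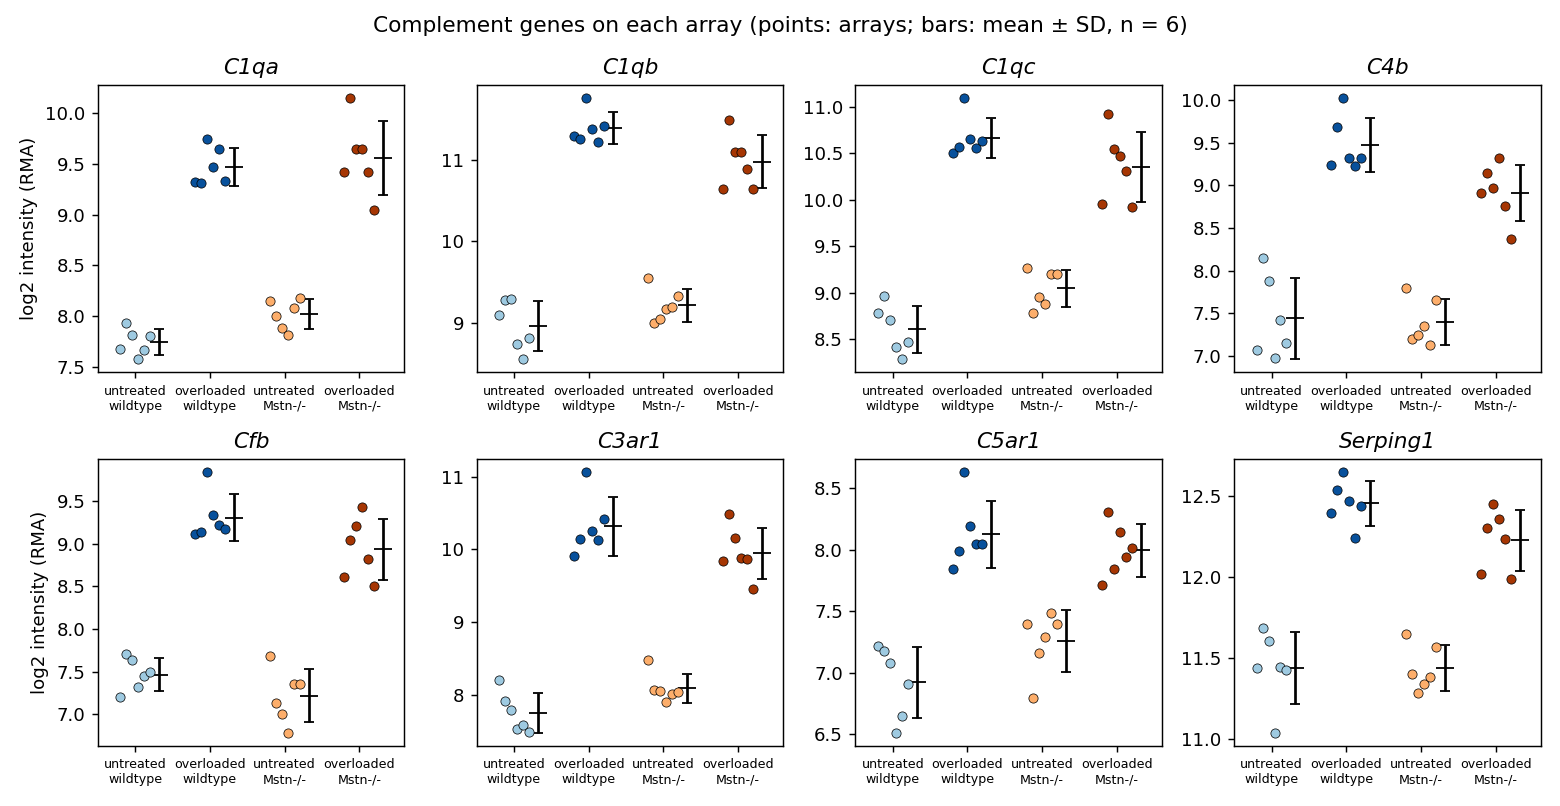
Log2 RMA intensity of the 8 measured members on each of the 24 arrays. Points are arrays, bars are the mean ± SD of 6 arrays, and the vertical scale differs between panels. Overloaded arrays lie above untreated arrays of the same genotype in every panel, and overloaded wildtype replicate 3 is the highest blue point of each.

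Among the recognition chains, C1qb ran from 8.55 to 9.28 with a median of 8.95 on the untreated wildtype arrays, and from 11.23 to 11.77 with a median of 11.35 on the overloaded ones. It rose 5.42-fold (log2 difference 2.44 ± 0.14, SE, n = 6 per group, limma adjusted p = 6.2e-14). The lowest overloaded array was far above the highest untreated one. C1qc ran from 8.29 to 8.96 (median 8.59) without and from 10.51 to 11.10 (median 10.60) with overload. It rose 4.17-fold (log2 2.06 ± 0.14, limma adjusted p = 2.1e-12), with 5 of the 6 overloaded arrays close together and replicate 3 above them. C1qa ran from 7.57 to 7.93 (median 7.74) and from 9.31 to 9.75 (median 9.40). It rose 3.32-fold (log2 1.73 ± 0.12, limma adjusted p = 2.5e-12), again with wide separation of the groups.

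Of the activation components, C4b, which encodes the C4 protein of the classical and lectin routes, ran from 6.98 to 8.15 (median 7.28) on untreated and from 9.22 to 10.02 (median 9.33) on overloaded arrays. It rose 4.08-fold (log2 2.03 ± 0.18, limma adjusted p = 3.5e-10). Its untreated arrays were the most spread of the members, with replicates 2 and 3 above the other 4. C4a, a near-identical copy of C4b, rose by 0.34 on the log2 scale (limma adjusted p = 0.002), and the share of its probes that also bind C4b transcripts was not tested, so how the signal divides between both is uncertain. Cfb ran from 7.20 to 7.71 (median 7.47) and from 9.12 to 9.84 (median 9.20). It rose 3.57-fold (log2 1.84 ± 0.15, limma adjusted p = 5.8e-11), and replicate 3 stood above the other overloaded arrays.

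The receptor C3ar1 had the largest rise of the members. It ran from 7.49 to 8.20 (median 7.69) without overload and from 9.91 to 11.07 (median 10.19) with it, a 5.94-fold difference (log2 2.57 ± 0.16, limma adjusted p = 5.3e-13). The receptor C5ar1 moved less, from 6.51 to 7.22 (median 6.99) up to 7.84 to 8.63 (median 8.04). It rose 2.30-fold (log2 1.20 ± 0.14, limma adjusted p = 1.6e-08), and its groups were separated by a smaller gap than those of C3ar1. Serping1, the inhibitor, ran from 11.04 to 11.69 (median 11.44) and from 12.24 to 12.65 (median 12.45), and rose 2.02-fold (log2 1.01 ± 0.09, limma adjusted p = 5.7e-10). The 95% confidence intervals of the log2 rises of Serping1 (0.82 to 1.21), C5ar1 (0.92 to 1.48), C1qa (1.48 to 1.98) and Cfb (1.53 to 2.15) lay below that of C3ar1 (2.23 to 2.91). Those of C4b (1.65 to 2.41), C1qc (1.77 to 2.35) and C1qb (2.15 to 2.72) overlapped that of C3ar1. Differences between members were not tested.

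The second comparison asks the same in muscle without myostatin. Again 8 of 8 members rose, against 27.1% of all tested genes called higher and 60.6% called in either direction. The rises ran from 1.67-fold for C5ar1 to 3.62-fold for C3ar1, and the median log2 difference was 1.53, against -0.06 over all tested genes. Fewer members, 6 of 8, reached 2-fold, against 3.87% of all tested genes. The overloaded and untreated arrays did not overlap for any member, against 19.8% of tested genes in the upward direction and 39.9% in either.

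C1qb rose from a range of 8.996 to 9.55 (median 9.18) to one of 10.64 to 11.50 (median 11.00), a 3.41-fold difference (log2 1.77 ± 0.14, SE, n = 6 per group, limma adjusted p = 5.6e-11). C1qc went from 8.79 to 9.26 (median 9.08) up to 9.92 to 10.92 (median 10.39), a 2.47-fold rise (log2 1.31 ± 0.14, limma adjusted p = 1.6e-08). C1qa went from 7.81 to 8.18 (median 8.04) up to 9.05 to 10.15 (median 9.53), a 2.91-fold rise (log2 1.54 ± 0.12, limma adjusted p = 5.4e-11). In all 3 chains the overloaded Mstn-/- arrays were more spread than the overloaded wildtype ones, with replicate 2 at the top and replicate 6 at the bottom. C4b rose 2.86-fold (log2 1.52 ± 0.18, limma adjusted p = 1.1e-07), from 7.13 to 7.80 (median 7.30) up to 8.38 to 9.32 (median 8.94). Cfb rose 3.28-fold (log2 1.71 ± 0.15, limma adjusted p = 4.7e-10), from 6.79 to 7.68 (median 7.24) up to 8.51 to 9.43 (median 8.93). Both activation components kept a clear gap between the groups.

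C3ar1 again rose most, 3.62-fold (log2 1.86 ± 0.16, limma adjusted p = 4.7e-10), from 7.90 to 8.48 (median 8.04) up to 9.45 to 10.49 (median 9.87). C5ar1 rose 1.67-fold (log2 0.74 ± 0.14, limma adjusted p = 4.3e-05), from 6.79 to 7.49 (median 7.34) up to 7.71 to 8.31 (median 7.98). Of the members it came closest to overlap, with the highest untreated array only a little below the lowest overloaded one. Serping1 rose 1.72-fold (log2 0.79 ± 0.09, limma adjusted p = 9.2e-08), from 11.28 to 11.65 (median 11.39) up to 11.98 to 12.45 (median 12.27). C4a rose by 0.22 (limma adjusted p = 0.046), and by 0.23 without overloaded Mstn-/- replicate 6, where it no longer passed (adjusted p = 0.051).

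**Figure D2:**
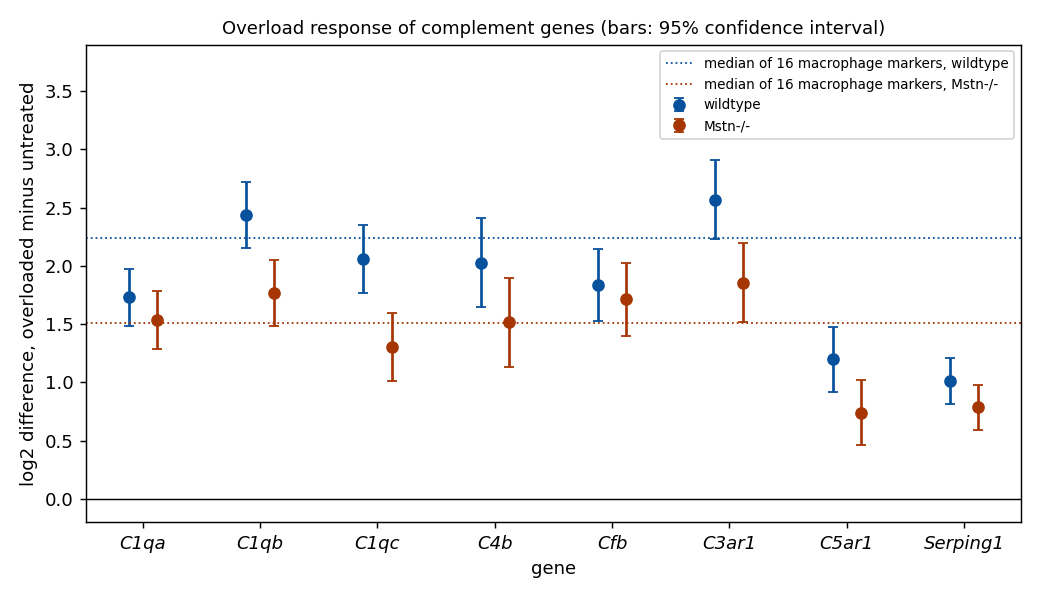
Log2 difference of each member between overloaded and untreated muscle in wildtype (blue) and Mstn-/- mice (red), with 95% confidence intervals from the limma fit. Dotted lines are the median rise of 16 macrophage markers in the same fit, 2.24 in wildtype and 1.51 in Mstn-/- muscle. All 16 intervals lie above 0, and the Mstn-/- point is the lower of the pair for every member.

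The next comparison, of the 2 rises with each other, asks whether myostatin loss changes how much these genes rise. The fitted rise was smaller in Mstn-/- muscle for all 8 members, with a median difference of -0.49 on the log2 scale against -0.02 over all tested genes. It passed the test for 3 of 8 members, C1qc, C3ar1 and C1qb, all with the smaller rise in Mstn-/- muscle, where 8.44% of all tested genes were called in that direction and 17.4% in either. The rise of C1qc was smaller by a log2 difference of -0.75 ± 0.20 (SE, limma adjusted p = 0.0099), that of C3ar1 by -0.71 ± 0.23 (limma adjusted p = 0.035) and that of C1qb by -0.67 ± 0.20 (limma adjusted p = 0.018). Part of each difference lay in untreated muscle, where Mstn-/- was fitted higher by 0.44, 0.34 and 0.25, in the same order. In overloaded muscle Mstn-/- was fitted lower, at -0.31, -0.37 and -0.42. Of these values only 0.44 for C1qc and -0.42 for C1qb passed the test. The other 5 members did not pass, with intervals that reach or come near 0. The log2 difference was -0.51 for C4b (95% interval -1.05 to 0.02, limma adjusted p = 0.19), -0.46 for C5ar1 (-0.86 to -0.07, adjusted p = 0.1) and -0.23 for Serping1 (-0.50 to 0.05, adjusted p = 0.27). It was -0.19 for C1qa (-0.54 to 0.16, limma adjusted p = 0.5) and -0.12 for Cfb (-0.56 to 0.32, adjusted p = 0.76).

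The calls for C1qb and C1qc held when any 1 of the 24 arrays was left out, with limma adjusted p of 0.0043 to 0.038 and 0.0018 to 0.021. The call for C3ar1 was lost without any of 9 arrays. Those were overloaded wildtype replicates 3 and 6, overloaded Mstn-/- replicates 1, 5 and 6, untreated wildtype replicates 4, 5 and 6, and untreated Mstn-/- replicate 1. Over all 24 omissions the log2 difference of C3ar1 ran from -0.82 to -0.56 and its limma adjusted p from 0.012 to 0.069. Without overloaded wildtype replicate 3 it was -0.56 (limma adjusted p = 0.057), and without overloaded Mstn-/- replicate 6 it was -0.61 (adjusted p = 0.069).

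In untreated muscle C1qc alone passed the test between the genotypes, 1 of 8 members higher and 0 lower, where 11.1% of tested genes were higher, 10.2% lower and 21.3% called in all. Its mean was 8.61 ± 0.25 (SD, n = 6) in wildtype and 9.05 ± 0.20 in Mstn-/- muscle, 1.36-fold higher in the latter (log2 0.44 ± 0.14, SE, limma adjusted p = 0.027), and the arrays of both groups overlapped. That call was lost without any of 6 arrays, untreated wildtype replicates 4, 5 and 6 and untreated Mstn-/- replicates 1, 5 and 6, at limma adjusted p of 0.054 to 0.072. The fitted differences of the other 7 members ran from -0.25 for Cfb (adjusted p = 0.28) to 0.34 for C3ar1 (adjusted p = 0.15). The groups overlapped for all 8 members, whereas they stood apart for 12% of tested genes, 6.53% with Mstn-/- muscle higher. Serping1 had means of 11.44 ± 0.22 and 11.44 ± 0.14, with a 95% interval of the difference from -0.20 to 0.19.

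In overloaded muscle, 2 of 8 members were lower in Mstn-/- mice and 0 were higher, where 19% of tested genes were lower, 17.5% higher and 36.5% called in all. C4b was at 9.47 ± 0.32 (SD, n = 6) in wildtype and 8.91 ± 0.33 in Mstn-/- muscle, 1.47-fold lower (log2 -0.56 ± 0.18, SE, limma adjusted p = 0.02). C1qb was at 11.40 ± 0.20 and 10.98 ± 0.33, 1.33-fold lower (log2 -0.42 ± 0.14, limma adjusted p = 0.02). The arrays of both groups overlapped for each of the 8 members, whereas they stood apart for 15.5% of tested genes, 7.06% with Mstn-/- muscle higher. Without overloaded wildtype replicate 3, neither passed, at -0.45 for C4b (limma adjusted p = 0.063) and -0.34 for C1qb (adjusted p = 0.062). Without overloaded Mstn-/- replicate 6 the values were -0.45 (limma adjusted p = 0.064) and -0.35 (adjusted p = 0.062), and without overloaded Mstn-/- replicate 1 C1qb was at -0.35 (adjusted p = 0.06). C1qa, at 0.08 (limma adjusted p = 0.62), was the single member with a fitted difference above 0. The remaining 5 ran from -0.37 for C3ar1 (adjusted p = 0.08) and Cfb (adjusted p = 0.058) to -0.13 for C5ar1 (adjusted p = 0.48).

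The 3 chains of C1q are made in equal numbers for each C1q molecule, and their signals moved by unequal amounts. The signal of C1qb minus that of C1qc on the same array, a difference that also holds the unlike response of 2 probe sets, was 0.35 ± 0.11 (SD, n = 6; 0.26 to 0.57) in untreated and 0.73 ± 0.06 (0.67 to 0.80) in overloaded wildtype muscle. In Mstn-/- muscle it went from 0.16 ± 0.12 (-0.01 to 0.29) to 0.63 ± 0.07 (0.56 to 0.72). Overloaded and untreated arrays did not overlap in either genotype. The gap between C1qb and C1qa widened from 1.22 ± 0.24 (0.89 to 1.48) to 1.93 ± 0.18 (1.58 to 2.09) in wildtype, without overlap, and went from 1.20 ± 0.15 (1.00 to 1.40) to 1.43 ± 0.12 (1.23 to 1.60) in Mstn-/- muscle, with overlap. The gap between C1qc and C1qa went opposite ways in the 2 genotypes, from 0.86 ± 0.19 (0.63 to 1.11) to 1.19 ± 0.16 (0.91 to 1.34) in wildtype and from 1.03 ± 0.12 (0.79 to 1.12) to 0.80 ± 0.14 (0.54 to 0.90) in Mstn-/- muscle, with overlap in both. These within-array differences were chosen after the values were seen and are given without a test.

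Other genes of the pathway show which arms of the cascade moved with the members. Of 48 further complement genes, also listed with earlier results of these data known, 44 had a probe set and 30 were tested. The other 14 were below the filter level in all 4 groups. In wildtype muscle 13 of the 30 were higher and 8 lower under overload, with a median log2 difference of 0.09, and in Mstn-/- muscle 15 were higher and 6 lower, with a median of 0.18. Over all tested genes 30.3% and 27.1% were called higher in the 2 genotypes, and 35.6% and 33.5% lower.

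**Figure D3:**
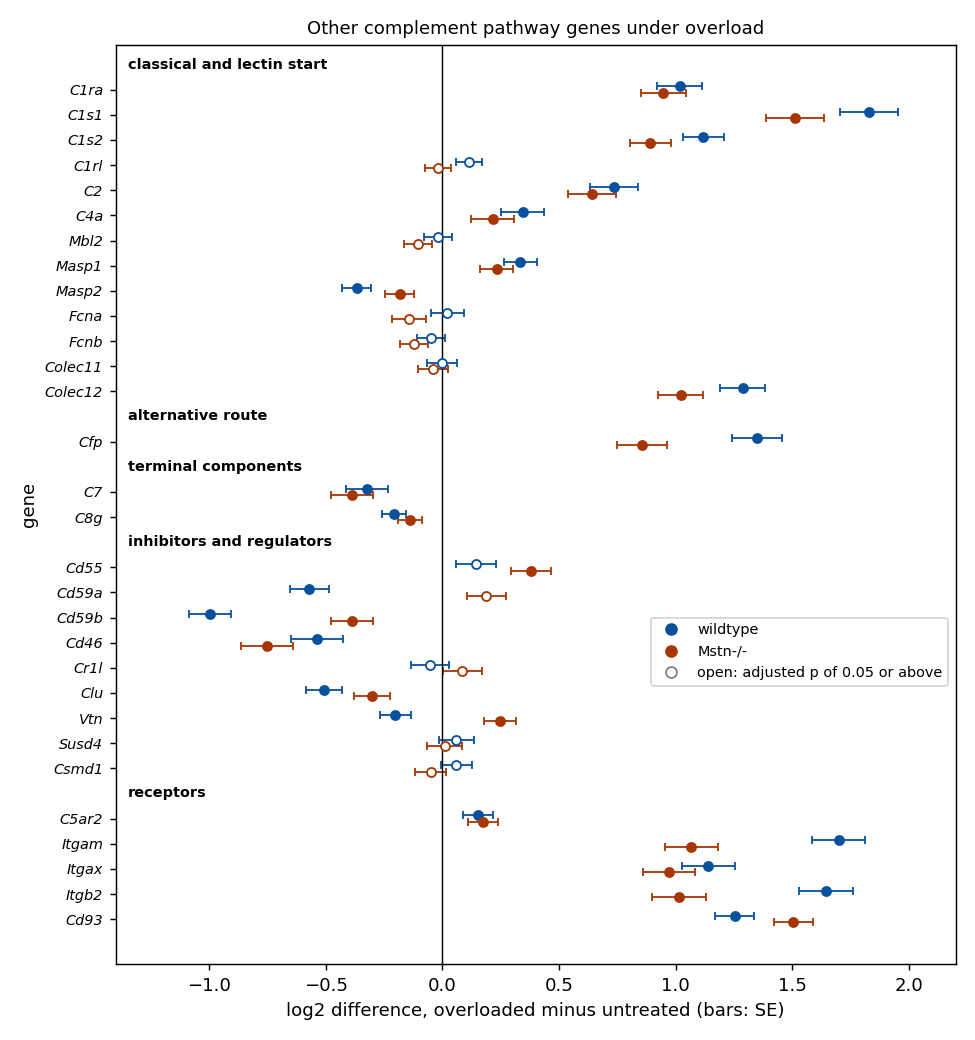
Log2 difference between overloaded and untreated muscle of the 30 tested genes of the further complement list, by role, in wildtype (blue) and Mstn-/- mice (red). Bars are ± 1 SE, and open points had a limma adjusted p of 0.05 or above. Proteases of C1, the collectin Colec12, properdin (Cfp) and the integrin receptors lie to the right of 0, and C7 and C8g lie to its left. The wildtype points of 6 of 9 regulators also lie to its left, 5 of them called lower, while the Mstn-/- points of 2 of those 5, Cd59a and Vtn, lie to its right.

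Of 13 genes that start the classical and lectin routes, 7 were higher and 1 lower in each genotype. C1s1, which encodes the C1 protease C1s, went from 7.72 ± 0.37 (SD, n = 6) to 9.55 ± 0.20 in wildtype muscle, a 3.56-fold rise (limma adjusted p = 1.5e-12), and rose 2.85-fold in Mstn-/- muscle (limma adjusted p = 1.3e-10). Its copy C1s2 rose 2.17-fold in wildtype and 1.86-fold in the absence of myostatin (limma adjusted p = 3.1e-11 and 4.1e-09), and C1ra, for the partner protease C1r, rose 1.93-fold in Mstn-/- muscle (adjusted p = 5.4e-09). The wildtype value of C1ra lay outside the rule naming up to 8 pathway genes per comparison, so its rise is not given as particular to Mstn-/- muscle. The scavenger collectin Colec12 rose 2.44-fold and 2.03-fold (limma adjusted p = 9.8e-12 and 1.5e-09). Properdin (Cfp), which stabilises the alternative route's C3-cleaving enzyme, rose 2.55-fold in wildtype (limma adjusted p = 2.7e-11) and 1.81-fold in Mstn-/- muscle. Its rise was smaller in Mstn-/- muscle by a log2 difference of -0.49 ± 0.15 (SE, limma adjusted p = 0.025).

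Of 7 listed receptor genes 5 were tested and rose in both genotypes, Cr2 and Vsig4 being below the filter level in every group. Of the 5, Itgax was below that level in both untreated groups and was tested only through the overloaded ones, and C5ar2 in wildtype did not pass without overloaded replicate 3 (log2 0.13, limma adjusted p = 0.1). Itgam and Itgb2, the subunits of complement receptor 3 of myeloid cells, rose 3.25-fold and 3.12-fold in wildtype (limma adjusted p = 1.2e-12 and 3.1e-12). They rose 2.09-fold and 2.02-fold in Mstn-/- muscle (limma adjusted p = 1.2e-08 and 3.8e-08). Their rises were smaller in Mstn-/- muscle by log2 differences of -0.63 ± 0.16 each (limma adjusted p = 0.0073 and 0.0084), close in size to those of C1qb, C1qc and C3ar1. Cd93, a surface glycoprotein of endothelial and myeloid cells first described as a C1q receptor, rose 2.38-fold and 2.84-fold (limma adjusted p = 8.5e-13 and 1.3e-13), and its difference between genotypes did not pass (log2 0.25 ± 0.12, adjusted p = 0.15).

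No gene of the terminal arm was called higher under overload. Of the 7 genes for components of the membrane attack complex, which pierces target membranes, 5 (Hc, C6, C8a, C8b and C9) were below the filter level in all 4 groups. The 2 tested, C7 and C8g, were lower under overload in both genotypes, by -0.32 and -0.21 on the log2 scale in wildtype (limma adjusted p = 0.003 and 8.8e-04) and by -0.39 and -0.14 in Mstn-/- muscle (adjusted p = 6.4e-04 and 0.023). C7 was itself below the filter level in both overloaded groups, so the size of its fall is uncertain.

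Regulators on cell surfaces and in plasma fell in part. Of 9 tested, 0 were higher and 5 lower in overloaded wildtype muscle (Cd59a, Cd59b, Cd46, Clu and Vtn), and 2 were higher (Cd55 and Vtn) and 3 lower (Cd59b, Cd46 and Clu) in overloaded Mstn-/- muscle. Cd59a, a membrane inhibitor of the attack complex, fell from 10.76 ± 0.09 (SD, n = 6) to 10.19 ± 0.19 in wildtype (log2 -0.57 ± 0.08, SE, limma adjusted p = 1.1e-06). In Mstn-/- muscle it was at 10.69 ± 0.11 and 10.88 ± 0.19 (log2 0.19 ± 0.08, limma adjusted p = 0.053, and 0.043 without overloaded wildtype replicate 3). The difference between the genotypes, 0.76 ± 0.12, passed the test (limma adjusted p = 8e-05). Cd59b, its paralogue, fell 1.99-fold in wildtype (limma adjusted p = 3.7e-10). Without myostatin it fell 1.31-fold (limma adjusted p = 6.8e-04), a log2 difference between both of 0.61 ± 0.13 (adjusted p = 0.0017). Signal of the Cd59a and Cd59b probes may be shared between these related genes. Vitronectin (Vtn), a plasma protein that also binds the terminal complex, moved by -0.20 in wildtype and 0.25 in Mstn-/- muscle (limma adjusted p = 0.011 and 0.003), a difference of 0.45 ± 0.10 (adjusted p = 0.0018). Of the 30 genes these 3 were called with a higher response in Mstn-/- muscle, a share near the 8.92% of all tested genes, and 10 were fitted above 0. The 6 calls of the list in this comparison, 3 in each direction, held without either of the 2 edge arrays.

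Between the genotypes, 3 of the 30 were higher and 1 lower in untreated Mstn-/- muscle. Masp1, a lectin-route protease gene, was lower by -0.54 ± 0.07 (SE, limma adjusted p = 3.2e-06), and Cd46, C1s2 and C7 were higher by 0.55 (adjusted p = 8.3e-04), 0.39 (adjusted p = 0.0023) and 0.29 (adjusted p = 0.024). In overloaded muscle 6 were higher and 4 lower, and 5 and 3 without overloaded Mstn-/- replicate 6. Masp1 was again lower, by -0.65 ± 0.07 (limma adjusted p = 1.7e-07), as were Itgb2 (-0.45, adjusted p = 0.0036) and Itgam (-0.40, adjusted p = 0.0075). Among the 6 higher were Cd59a (0.69, limma adjusted p = 5.8e-07), Cd59b (0.50, adjusted p = 1.2e-04), Vtn (0.38, adjusted p = 8.2e-05), Cd55 (0.32, adjusted p = 0.0052) and C8g (0.19, adjusted p = 0.0052). In each genotype comparison the counts lie beside 21.3% and 36.5% of tested genes called.

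Markers of other cells, also listed with earlier results of these data known, moved only in part with the members, and the lists differed. Under overload 30.3% of all tested genes were called higher and 35.6% lower in wildtype, and 27.1% and 33.5% in Mstn-/- muscle. Of 16 macrophage markers, none of them a member, 15 rose and 0 fell in overloaded wildtype muscle, with a median log2 difference of 2.24, and 14 rose and 1, Cd163, fell in Mstn-/- muscle, with a median of 1.51. Without overloaded wildtype replicate 3, 14 rose in wildtype, Lyve1 being lost (log2 0.32, limma adjusted p = 0.052). The summed intensity of these markers ran from 3274 to 4215 in untreated and from 14196 to 22074 in overloaded wildtype muscle, the latter highest on replicate 3. In Mstn-/- muscle it ran from 4613 to 5563 and from 9755 to 18673. Of all tested genes 8.44% had a smaller response in Mstn-/- muscle by the test. The overload response of all 16 markers was fitted lower in Mstn-/- muscle, and 7 passed (median -0.42), among them Lyz2 at -1.09 (limma adjusted p = 3.2e-05). Without either edge array 6 passed, Ctss being lost (limma adjusted p = 0.088 in both). Ms4a7, Aif1 and Mpeg1 were below the filter level in untreated wildtype muscle and Ms4a7 and Aif1 in untreated Mstn-/- muscle, so they were tested through overloaded groups, and Aif1 was also below it in overloaded Mstn-/- muscle.

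Of 9 markers of fibro-adipogenic progenitors, the connective tissue cells of muscle, 8 rose and 1, Gsn, fell in wildtype, 6 rose and 1 fell in Mstn-/- muscle, and 5 had a smaller response in Mstn-/- muscle. Their summed intensity ran from 6562 to 9036 and from 17463 to 20919 in wildtype, and from 7822 to 10003 and from 11797 to 15353 in Mstn-/- muscle. Of 10 neutrophil markers 5 were tested. Csf3r rose in both genotypes and Ngp in wildtype, but both were below the filter level in both untreated groups and were tested only through the overloaded ones. Elane fell in both genotypes, to below the level. Without overloaded wildtype replicate 3, Ngp and S100a9 also passed in Mstn-/- muscle (log2 0.91 and 0.45, limma adjusted p = 0.0045 and 0.0097), which takes the markers called higher there from 1 to 3. The other 5, S100a8, Cxcr2, Ly6g, Mmp8 and Retnlg, were below the filter level in every group. The sums of all 10 were 643 to 738 and 724 to 2214 in wildtype, with replicate 3 at the top, and 664 to 718 and 674 to 1247 in Mstn-/- muscle. Of 7 lymphocyte markers, Cd3d, Cd79a and Ms4a1 were below the level in every group and Cd3e, Cd4 and Nkg7 rose in each genotype. Of these, Cd4 and Nkg7 were below it in both untreated groups and Nkg7 also in overloaded wildtype muscle, so its wildtype rise lies under the level throughout. The sums of the 7 ran from 530 to 645 and 587 to 741 in wildtype and from 512 to 580 and 621 to 823 in Mstn-/- muscle. Of 8 endothelial markers 7 rose in each genotype and 3 had a higher response in Mstn-/- muscle, with 0 lower, or 2 without either edge array. Their sums ran from 5035 to 6226 and 6647 to 8291 in wildtype and from 4678 to 5612 and 7145 to 8237 in Mstn-/- muscle. The 10 muscle fibre markers include the fast-fibre genes Myh4, Pvalb and Actn3 and none particular to slow fibres, and a shift between fibre types was not tested. Of the 10, 6 fell in wildtype, among them these 3 (log2 -1.08, -0.81 and -0.78), and 5 fell and 1 rose in Mstn-/- muscle. The response of 5 was higher in Mstn-/- muscle and of 0 lower, the opposite direction to the members. They summed to 116195 to 117985 without and 82997 to 100693 with overload in wildtype, and to 116995 to 126461 and 112934 to 120028 in Mstn-/- muscle, and all 10 were above the filter level in every group. The counts of these lists stand beside 30.3% of all tested genes higher and 35.6% lower in wildtype, and 27.1% and 33.5% in Mstn-/- muscle. For the difference between responses the shares were 8.44% lower and 8.92% higher in Mstn-/- muscle. The part of these markers' changes in the members' results was not tested.

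**Figure D4:**
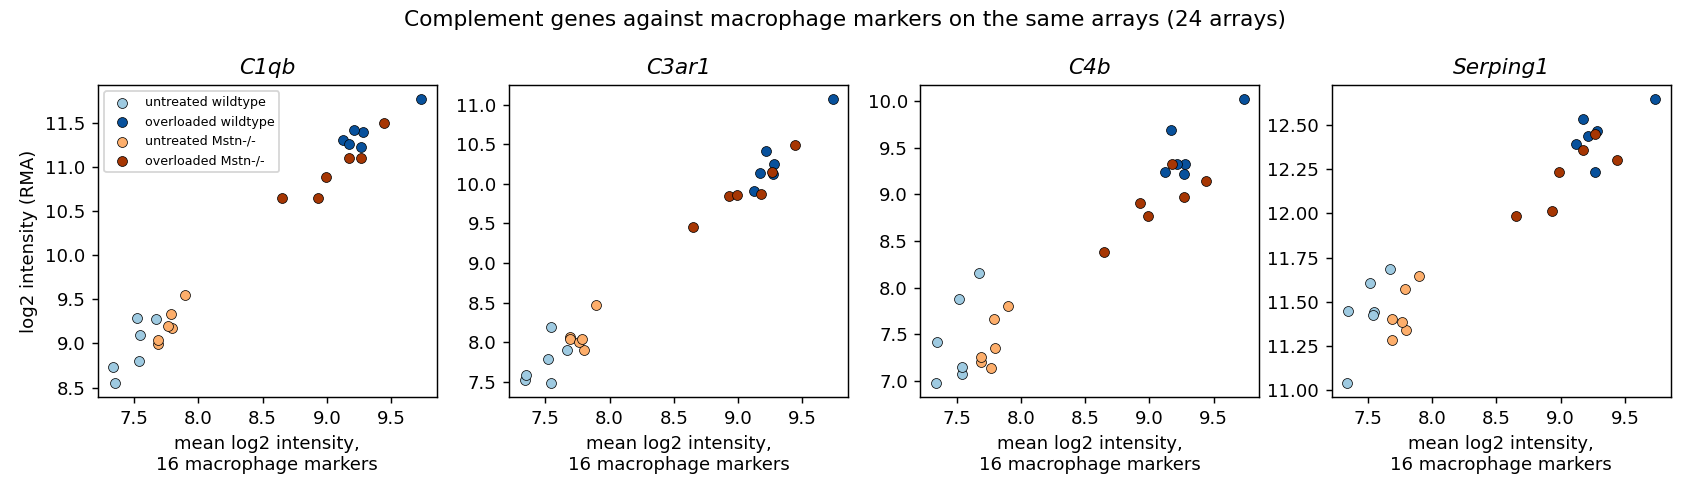
Log2 intensity of C1qb, C3ar1, C4b and Serping1 against the mean log2 intensity of 16 macrophage markers on the same array, for all 24 arrays. Untreated arrays lie at the lower left and overloaded arrays at the upper right, and overloaded wildtype replicate 3 is the rightmost point of each panel at a marker mean of 9.73.

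The plot of members against macrophage markers can be read as a question of whether a member moved more or less than the markers did. The mean of the 16 markers rose by 1.80 in wildtype and 1.30 in Mstn-/- muscle. With that mean subtracted from every gene on each array, C5ar1 and Serping1 rose less than the markers in wildtype, by -0.60 ± 0.12 (SE, limma adjusted p = 1.4e-05) and -0.79 ± 0.12 (adjusted p = 1.5e-08). The same held in Mstn-/- muscle, at -0.57 ± 0.12 (limma adjusted p = 4.1e-05) and -0.52 ± 0.12 (adjusted p = 4.9e-05). C1qb and C3ar1 exceeded the markers in wildtype by 0.64 ± 0.11 (limma adjusted p = 1.4e-06) and 0.77 ± 0.12 (adjusted p = 1.2e-07). In Mstn-/- muscle they exceeded them by 0.46 ± 0.11 (limma adjusted p = 2e-04) and 0.55 ± 0.12 (adjusted p = 4.4e-05). In all 3 members were above and 2 below the markers in wildtype and 4 above and 2 below in Mstn-/- muscle, where 0.959% and 1.3% of all tested genes were above and 98.8% and 97.8% differed in either direction. Subtracting the risen marker mean moved the median of all tested genes to -1.86 and -1.37, so these shares largely reflect the subtraction. The excesses depend on the markers and on how they are averaged. C1qc, the third member above in wildtype (0.26, limma adjusted p = 0.027), stood at -0.049 (adjusted p = 0.72) against the median of the 16. With Adgre1, Cd68 and Csf1r alone, C1qb and C3ar1 stood 0.11 (limma adjusted p = 0.44) and 0.24 (adjusted p = 0.098) above them in wildtype, and 0.07 (adjusted p = 0.6) and 0.16 (adjusted p = 0.26) in Mstn-/- muscle.

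Relative to the macrophage markers, no member differed between the genotypes in its overload response, 0 of 8 at a limma adjusted p under 0.05, where 68.1% of all tested genes did, 67.9% with the higher relative response in Mstn-/- muscle. The marker mean itself differed by -0.50 in this comparison. Subtracting it moved the median of all tested genes to 0.48, so those shares largely reflect the subtraction. The relative difference was -0.26 ± 0.16 (SE, limma adjusted p = 0.13) for C1qc, -0.21 ± 0.17 (adjusted p = 0.25) for C3ar1 and -0.17 ± 0.16 (adjusted p = 0.32) for C1qb. C1qa stood at 0.31 ± 0.15 (limma adjusted p = 0.067) and Cfb at 0.38 ± 0.18 (adjusted p = 0.056). With the 3 markers these last 2 passed, at 0.44 (limma adjusted p = 0.037) and 0.51 (adjusted p = 0.026). Relative to the mean of 9 fibro-adipogenic progenitor markers, 6 members were higher and 1 lower in overloaded wildtype muscle, and 6 were higher and 0 lower in Mstn-/- muscle, against 2.9% and 3.93% of tested genes higher and 96.7% and 93.6% called in either direction. Here too the subtraction moved the median of all tested genes, to -1.24 and -0.84. No member's response differed between genotypes relative to the progenitor markers either, against 66% of tested genes, 65.5% in the higher direction, at a median moved to 0.40. That count depends on the markers: with Pdgfra, Pi16 and Dpt alone, or with the median of the 9, C1qa, Cfb and Serping1 passed, all with the higher relative response in Mstn-/- muscle (log2 0.36 to 0.47, limma adjusted p from 0.0072 to 0.034).

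Genes that followed each member most closely were found by the root mean square difference of log2 levels over the 24 arrays, each gene centred on its own mean, so that a small value is a close match. Nearest to the mean of the 3 C1q chains were Nckap1l (0.11), a haematopoietic regulator of actin, Grn (0.13), the gene of progranulin, and the Fc receptor gene Fcgr3 (0.14), against a median of 0.98 over all tested genes. Nearest to C3ar1 were Fcgr2b (0.17), the macrophage marker Adgre1 (0.18) and Cd53 (0.18), against a median of 1.20. C5ar1 lay nearest to Vsir (0.17), Cfp (0.19) and Man2b1 (0.19), against 0.60. The activation components had other neighbours, Cfb with Crtap (0.16), Maged1 (0.17) and Fkbp7 (0.19), against 0.98, and C4b, less closely, with Marcks (0.23), Pxdn (0.24) and Sirpa (0.24), against 1.00. Serping1 lay nearest to Srd5a3, Eid1 and Cdk4, each at 0.11 against a median of 0.54. Among the members themselves C1qb and C3ar1 were the closest pair at 0.19, C1qa and C1qc followed at 0.21 and C5ar1 and Serping1 at 0.24, while C3ar1 and Serping1 were the farthest apart at 0.71. All 24 arrays share the split between overloaded and untreated muscle, and every distance includes it.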

How the data were processed

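RNA of the plantaris was measured on 24 one-colour whole-transcript arrays. Per the submitters' processing notes the authors made the deposited values with RMA (no version given). The deposited values are intensities per probe set on a linear scale (4.72 to 25588.9), with the probe-to-gene annotation of the platform. The analysis plan allowed for values already on a log2 scale. As the deposited numbers were linear, they were put on that scale here, with nothing added.

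Of 34760 probe sets, 21640 have 1 gene symbol, 1321 several and 11799 none. Only the first were used, 21553 of which matched RefSeq (GRCm38.p6) by gene ID and 87 did not. The brightest probe set stood for a gene, giving 19937 genes. A gene was tested if at least 1 group mean was above the 30th percentile of probe sets (intensity 98.9), leaving 14499. limma 3.58.1 in R 4.3.3 was fitted with 1 mean per group over 24 arrays (20 residual degrees of freedom), with eBayes and Benjamini-Hochberg adjustment over all genes tested and a threshold of 0.05. Marker-relative values repeat this fit after subtracting the markers' mean log2 intensity per array.

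The members, pathway list and marker lists were chosen with earlier results of these data known. Named are all members, Mstn once, up to 8 pathway genes per comparison by adjusted p, C4a, up to 3 markers per list, and the 3 genes most like each member. Genes behind counts of 5 or fewer, and marker and pathway genes outside that rule, were named after their values were seen. Tested on simulated data for overload in wildtype (200 of 14499 genes changed, 5 runs), the fit found 64.4% of changes of 0.3 (log2), 95.6% of those of 0.5 and 100% of those of 1, with 4.96% of calls false. Far fewer genes changed there than the 65.9% called in the real comparison, so these rates need not hold for it. Replicate numbers are shared by the groups, but the labels do not say that a number marks a shared litter, batch or day, so the main fit has no block. Deviations of same-numbered arrays correlated at -0.41 to 0.36, with at most 2 of 6 pairs over 0.1. In both comparisons between genotypes 2 of 6 arrays correlated best with their own number. Alternatives were quantile normalization, a median shift, no and a stricter filter, the mean of probe sets, array weights, eBayes with trend and robust, a replicate block, only the groups compared, each array left out, and other marker averages. Lists and marker-relative values without 2 arrays were added after seeing the data.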

Additional observations from a re-analysis of the deposited data

Results flagged for a closer look

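On 4 occasions 1 array stood apart from the other 5 of its group by Dixon's criterion, among 32 sets of a member and a group, where chance gives about 1 in 20. Of these, 3 lay on overloaded wildtype replicate 3. C1qb was at 11.77 there, with the other 5 arrays between 11.23 and 11.42. C1qc was at 11.10, with the others between 10.51 and 10.65, and Cfb was at 9.84, with the others between 9.12 and 9.34. The fourth was C3ar1 on untreated Mstn-/- replicate 1, at 8.48 against 7.90 to 8.07.

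The overload response differed between the genotypes by the limma test of the difference itself for 3 members. The log2 difference was -0.67 for C1qb, -0.75 for C1qc and -0.71 for C3ar1, the rise being smaller in Mstn-/- muscle. In the further complement list it was -0.63 for Itgam, -0.63 for Itgb2 and -0.49 for Cfp. It was above 0 for the regulators Cd59a (0.76), Cd59b (0.61) and Vtn (0.45).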

How the results depend on the processing

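All 8 members stayed higher under overload in both genotypes under each of the 9 other settings and each of the 24 omissions of 1 array. For the difference between responses the count stayed at 3 under the 8 settings that apply and ran from 2 to 4 when an array was left out. With quantile normalization 5 members, not 2, were lower in overloaded Mstn-/- muscle, and with 1 array left out the count ran from 0 to 4. In untreated muscle 3 members, not 1, were higher with array weights and also with only those groups in the fit, and 0 to 2 with 1 array left out. With the replicate number as a block the counts of the 5 comparisons were 8, 8, 1, 2 and 3, as reported. Among the members the block changed the call only of 2 marker-relative values: C1qa against macrophage markers in Mstn-/- muscle (0.23, limma adjusted p = 0.065) and Serping1 against progenitor markers in wildtype (-0.17, adjusted p = 0.061). Marker-relative counts moved with the markers. In Mstn-/- muscle 3 members, not 6, differed from the macrophage markers with 3 markers and 3 with their median. For the difference between responses 2, not 0, passed with 3 macrophage markers, 3 with 3 progenitor markers and 3 with the median of the progenitor markers. Against 3 macrophage markers the sign turned for members called in either fit, C1qc (-0.27) and Cfb (-0.49) in wildtype and C1qa (-0.16) and C1qc (-0.39) in Mstn-/- muscle, and for C4b, called in neither (-0.30 and -0.18). Against the median of all 16 it turned for C1qc (-0.049) in wildtype and for C1qa (-0.087) and C1qc (-0.32) in Mstn-/- muscle, and, called in neither, for C4b (-0.079 and -0.11) and wildtype Cfb (-0.27). Against the median of the progenitor markers it turned for Serping1 (0.082) in wildtype and C5ar1 (0.40) in Mstn-/- muscle. The cause of these shifts was not tested. Without overloaded wildtype replicate 3 or overloaded Mstn-/- replicate 6, omissions added after seeing the data, no marker-relative call of a member changed in the 3 comparisons run. Signal near the filter level limits Ms4a7, Aif1, Mpeg1, Csf3r, Ngp, Elane, Cd4, Nkg7, Itgax, Masp2 and C7, while every member was above it in all groups.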

Other observations

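In RefSeq gene order C2 is the neighbour of Cfb, and C5ar2 that of C5ar1. C2, which encodes the protease that works with C4, rose by 0.73 ± 0.10 on the log2 scale (SE, n = 6 per group, limma adjusted p = 5.8e-07) in overloaded wildtype and by 0.64 ± 0.10 (adjusted p = 7.2e-06) in Mstn-/- muscle. Its groups did not overlap in either genotype. C5ar2, a second receptor for the fragment of C5, rose by 0.15 ± 0.06 (limma adjusted p = 0.041) and 0.17 ± 0.06 (adjusted p = 0.023), with overlapping groups. Without overloaded wildtype replicate 3 the first was 0.13 (adjusted p = 0.1).

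C5ar1 rose by a larger log2 difference than C5ar2 in both genotypes, and Cfb by a larger one than C2, with no test of these differences between genes. All 4 genes were chosen as neighbours after their values were seen.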
